A study of Rattus norvegicus with 12 samples.

Results

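Integrins that bind fibronectin or laminin were measured in rat cardiac progenitor cells plated for 2 h on either matrix protein, on dishes without coating, or held in suspension. The genes were chosen by name from the known receptors of both proteins, with earlier results of these data known. The 10 listed were Itga3, Itga4, Itga5, Itga6, Itga7, Itgav, Itgb1, Itgb3, Itgb4 and Itgb5. Of these, 7 had a row among the 16924 genes in each file, and Itga3, Itgav and Itgb3 were not analysed here. Itga4 had 0 counts in all 12 libraries, so 6 genes passed the filter on low counts and entered the tests.

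The cells came from 1 rat clone and were grown with 10% fetal bovine serum, leukemia inhibitory factor, basic fibroblast growth factor, erythropoietin and glutathione. They were seeded sparsely in 0.1% serum. There were 3 libraries each on fibronectin, on laminin and on no coating, and 3 from suspension. The labels attach the dish protocol to the suspension libraries as well and do not say how those cells were kept. The replicate number is also the batch in the labels (1 to 3), so batches can be compared within every group. With 1 clone, replicate spread is that of this line and not of animals.

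Integrins are heterodimers of an α and a β chain that link the extracellular matrix to the actin or keratin cytoskeleton. The α5 chain pairs with β1 as the classical fibronectin receptor. The α6 and α7 chains pair with β1 as laminin receptors, and α6 also pairs with β4 in hemidesmosomes of epithelia. The β5 chain pairs with αv and binds mainly vitronectin, a protein abundant in serum, while α4β1 binds fibronectin and VCAM-1. In heart muscle, α7β1 is the main laminin-binding integrin of adult myocytes and α5β1 is more typical of embryonic and injured heart.

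Totals ran from 15875160 to 20852160 counts per library. On the first principal component (56.1% of the variance) attached libraries of batches 1 and 2 lay between -7.04 and 1.46. Those of batch 3 stood apart at 20.8 on fibronectin, 35.0 on laminin and 41.9 on no coating, and suspension libraries lay between -30.8 and -27.8. The results below are therefore also given by batch and, where the call or direction changes, without batch 3. Mesenchymal markers, mostly Vim, summed to 6578 to 7221 CPM (counts scaled to a common library total) in attached libraries and 5886 to 6511 CPM in suspension. Of these markers, Vim, Pdgfra and Pdgfrb had their lowest mean in suspension. Col1a1 had its highest there, at 1251 CPM against 1171 on fibronectin, 1016 on laminin and 1220 on no coating. Gata4, a cardiac transcription factor, averaged 88.4 CPM and the progenitor marker Kit 3.09 CPM over all libraries. Cardiomyocyte markers summed to 3.92 to 6.27 CPM in attached libraries and 1.57 to 2.05 CPM in suspension, nearly all from Tnnt2, with Myh7 and Nkx2-5 at 0. Smooth muscle markers, mostly Smtn, summed to 162 to 216 CPM in attached libraries and 266 to 315 CPM in suspension. Blood cell markers summed to 49.4 to 64.3 CPM in attached libraries and 35.1 to 37.6 CPM in suspension, nearly all from Cd14, with Tyrobp at 0. The part of these marker sums in the integrin differences was not tested. In bulk RNA, fewer cells of a type and less RNA per cell cannot be told apart.

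After plating, Itga5, the fibronectin receptor α chain, was called higher on laminin and on no coating by the test described below. On fibronectin every library also lay above suspension, but the difference missed the threshold, and laminin against fibronectin was not called. The laminin call was lost in several of the settings given below. The β partner of Itga5, Itgb1, passed the test on no surface. The sequences just before the start sites of this receptor pair are shown because Itga5 was called and Itgb1 was not. Whether the changes of the 2 genes differed from each other was not tested. They are RefSeq promoters on assembly GRCr8, 250 bases each, 5′ to 3′ on the strand of the gene, at chr7:136381306-136381555 (minus strand) for Itga5 and chr19:73602027-73602276 (plus strand) for Itgb1. Capitals mark a match to the TEAD motif GGAATG, the site class through which YAP, named in the series title, acts with TEAD proteins.
Itga5: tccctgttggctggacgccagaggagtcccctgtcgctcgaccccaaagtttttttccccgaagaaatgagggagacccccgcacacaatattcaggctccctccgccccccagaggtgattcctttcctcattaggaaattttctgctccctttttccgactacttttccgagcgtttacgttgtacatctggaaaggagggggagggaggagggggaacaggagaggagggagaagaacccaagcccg
Itgb1: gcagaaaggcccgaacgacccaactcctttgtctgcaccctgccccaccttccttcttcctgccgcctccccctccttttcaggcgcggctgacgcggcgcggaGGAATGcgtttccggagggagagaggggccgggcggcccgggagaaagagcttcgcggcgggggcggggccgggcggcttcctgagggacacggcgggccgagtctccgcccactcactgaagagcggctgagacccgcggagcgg
Windows of 300 bases, which add 50 bases after the start, were searched on both strands for GGAATG, for the AP-1 motif TGANTCA and for the CArG box of SRF. Itgb1 held the GGAATG match at -146 to -141 from the start and neither other motif, and Itga5 held none of the 3. Of 33469 rat promoter windows, 14.2% held GGAATG, 7.33% TGANTCA and 1.64% a CArG box. A match is a run of letters and was not tested as a binding site.

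Itga5 had 362, 347 and 379.5 CPM on fibronectin in batches 1 to 3. It had 351, 371 and 446 CPM on laminin and 389, 404 and 487 CPM on no coating, against 288, 314 and 319 CPM in suspension. Every attached library lay above every suspension library, as was so for 16.4% of all genes on fibronectin, 22.0% on laminin and 17.6% on no coating. Group means were 363 ± 16.1 CPM on fibronectin, 389 ± 49.9 CPM on laminin, 427 ± 53.1 CPM on no coating and 307 ± 16.6 CPM in suspension (SD, n = 3 each).

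**Figure D1:**
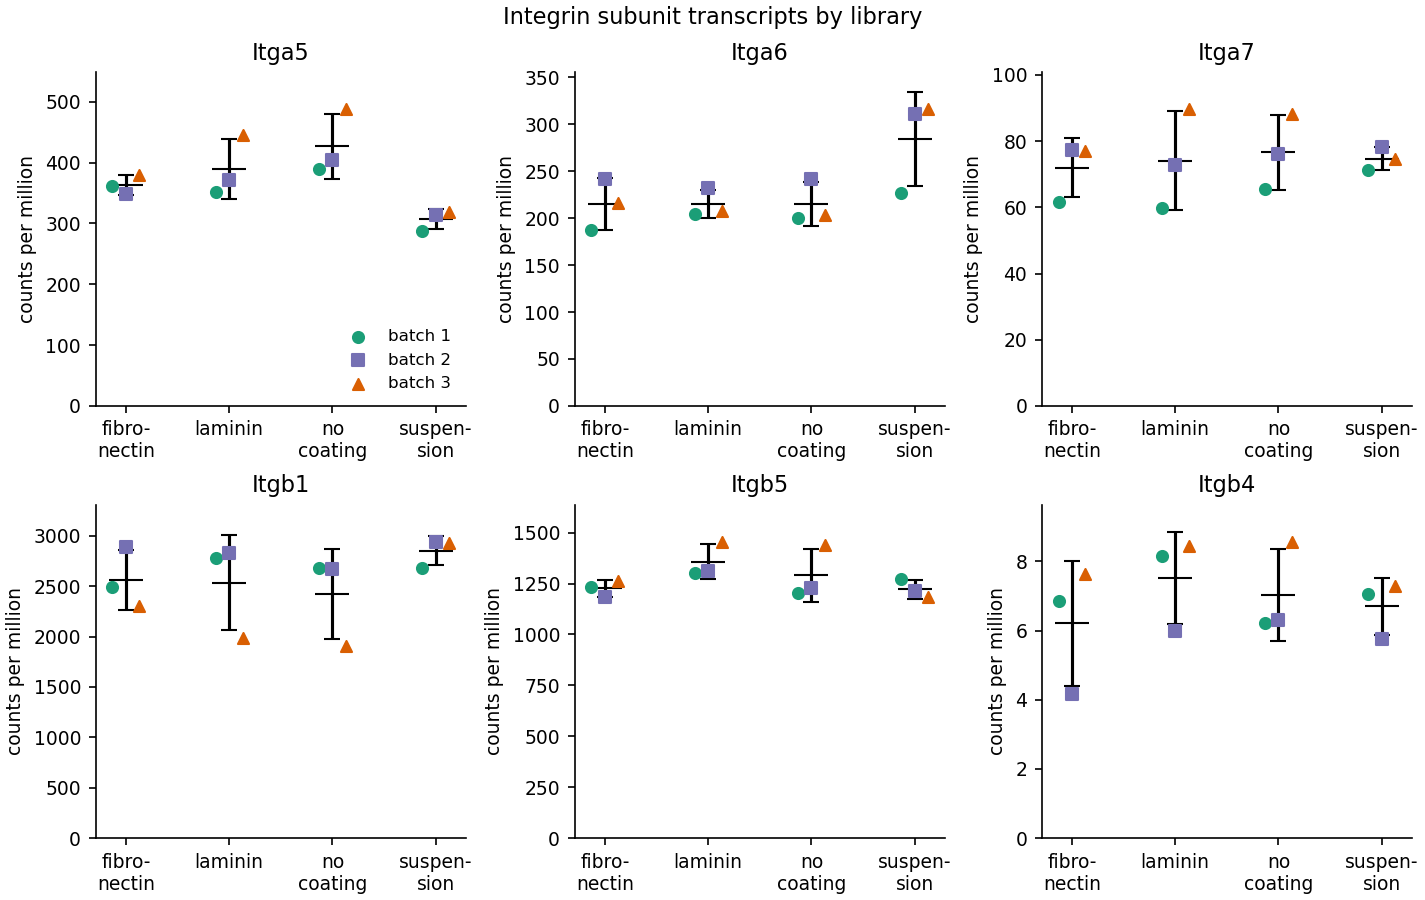
CPM (vertical axes, linear, from 0) of the 6 tested integrin genes, with 1 point per library by group, a symbol per batch, and a horizontal bar at each group mean with the SD over 3 libraries as the error bar. Itga5 lies between 347 and 487 CPM in attached libraries and between 288 and 319 CPM in suspension, while the Itga6 ranges of 188 to 242 and 227 to 316 CPM overlap.

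Differences between groups were tested with edgeR's quasi-likelihood test on all 10020 tested genes, with libraries scaled by TMM, a correction for composition, and p-values adjusted by the Benjamini-Hochberg method and a threshold of 0.05. Against suspension, the log2 fold change of Itga5 was 0.28 ± 0.10 (SE) on fibronectin (edgeR adjusted p = 0.0939), which missed the threshold. It was 0.34 ± 0.10 on laminin (edgeR adjusted p = 0.0319), a 1.27-fold higher level. On no coating it was 0.49 ± 0.10 (edgeR adjusted p = 0.00914), 1.40-fold higher. With the batch as a block, all 3 passed, with edgeR adjusted p = 0.0149 on fibronectin, 0.00434 on laminin and 0.00105 on no coating.

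Within batches, the log2 ratio of Itga5 to the suspension library of the same batch was positive on each surface. It was 0.33, 0.15 and 0.25 on fibronectin, 0.29, 0.24 and 0.48 on laminin, and 0.43, 0.36 and 0.61 on no coating. The share of all genes with a ratio of the same sign in every batch was not computed. The laminin call was lost without any 1 suspension library and without laminin 2 or 3, with edgeR adjusted p between 0.0547 and 0.112. It was also lost without TMM scaling (0.0559) and with only the groups compared in the fit (0.0578), where the fibronectin value passed (0.0480). The no coating call held in each setting run, and without batch 3 its log2 fold change was 0.43 (edgeR adjusted p = 0.0125).

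So 1 of the 6 tested integrin genes was called higher by edgeR on laminin and on no coating and 0 on fibronectin, and edgeR called none lower. Among all 10020 genes, 12.1% were called higher on laminin, 8.48% on no coating and 6.61% on fibronectin, and 6.96%, 4.10% and 3.06% were called lower. In either direction that was 19.0% on laminin, 12.6% on no coating and 9.67% on fibronectin, so 1 call among 6 is near the background. Unadjusted edgeR p-values below 0.05 were found for 2 of the 6 on fibronectin, 3 on laminin and 2 on no coating. Of all 10020 genes, 2697 on fibronectin, 3577 on laminin and 3201 on no coating had such a p-value. DESeq2 called 0 on fibronectin, 1 higher and 1 lower on laminin, and 1 higher on no coating. Of all 10020 genes, DESeq2 called 1319 on fibronectin, 2222 on laminin and 1659 on no coating. With the block, 2 of 6 were called on each surface, against 28.7% of all genes on fibronectin, 43.2% on laminin and 38.8% on no coating. The median log2 fold change of the 6 was -0.05 on fibronectin, 0.07 on laminin and 0.07 on no coating, beside 0.00, -0.01 and 0.00 over all genes. These comparisons share the 3 suspension libraries.

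Itga6, the α chain of the laminin receptors α6β1 and α6β4, had lower means on every surface. With all 12 libraries and no block, edgeR called none of these differences, while DESeq2 called it lower on laminin (-0.42, DESeq2 adjusted p = 0.0463). It had 188, 242 and 216 CPM on fibronectin. On laminin it had 205, 232 and 208 CPM and on no coating 201, 242 and 203 CPM, against 227, 311 and 316 CPM in suspension. Suspension 1 lay within the attached range, and suspension 2 and 3 lay above every attached library. The attached means were 215 ± 27.4 CPM on fibronectin, 215 ± 15.0 CPM on laminin and 215 ± 23.3 CPM on no coating, against 285 ± 50.1 CPM in suspension (SD, n = 3 each).

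The log2 fold change of Itga6 was -0.37 ± 0.14 on fibronectin (edgeR adjusted p = 0.127), -0.41 ± 0.14 on laminin (edgeR adjusted p = 0.0711) and -0.39 ± 0.14 on no coating (edgeR adjusted p = 0.0989). In each batch all 3 attached libraries lay below the suspension library of that batch, which they share. The share of all genes with such an order in every batch was not computed. The within-batch log2 ratios of Itga6 were -0.27, -0.36 and -0.55 on fibronectin, -0.15, -0.42 and -0.60 on laminin, and -0.18, -0.36 and -0.64 on no coating. With the batch as a block the log2 fold changes were -0.37, -0.40 and -0.38, with edgeR adjusted p = 0.0199, 0.0100 and 0.0140 in the same order of surfaces. Without batch 3 the values were -0.29, -0.29 and -0.25, with edgeR adjusted p = 0.333, 0.268 and 0.378. Without a block, leaving out suspension 1 brought all 3 past the threshold, with edgeR adjusted p = 0.0312 on fibronectin, 0.0189 on laminin and 0.0262 on no coating.

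**Figure D2:**
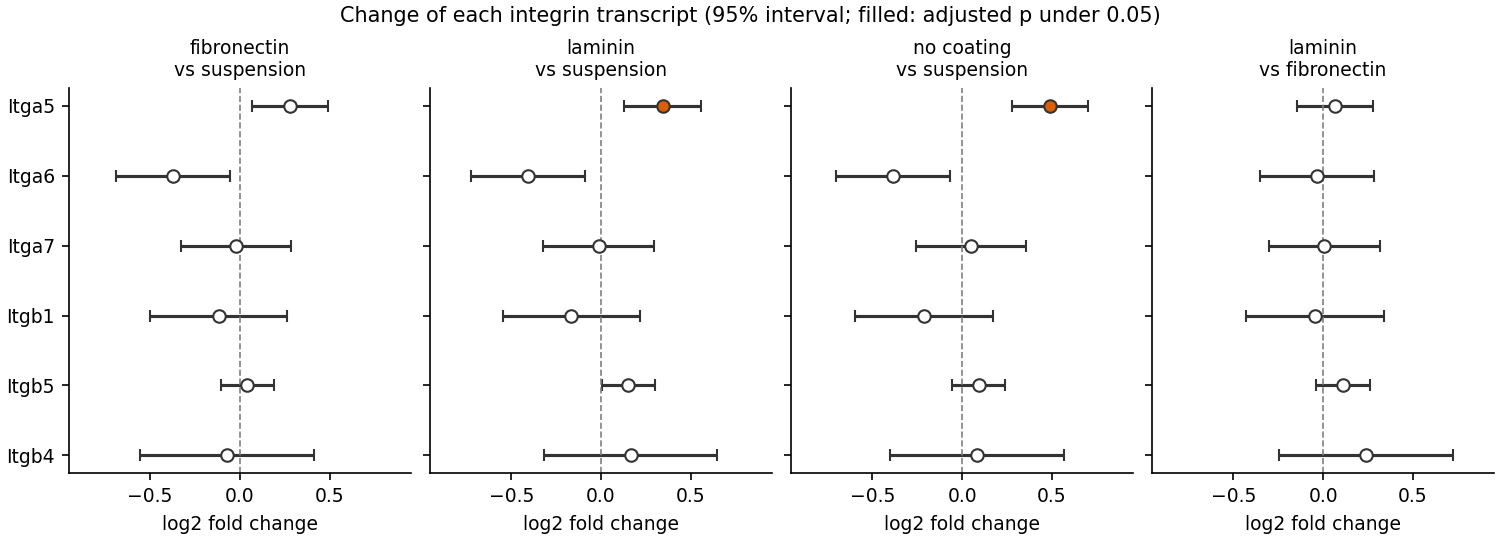
Log2 fold changes (edgeR, points) with 95% intervals (bars) of the 6 tested integrin genes, with filled points where the Benjamini-Hochberg adjusted p was below 0.05. The panels show each surface against suspension, and laminin against fibronectin. The filled points are Itga5 on laminin (0.34) and on no coating (0.49) against suspension.

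Because the fold changes of Itga5 and Itga6 had opposite signs, their count ratio within a library was taken, which needs no scaling between libraries. It does not compare the 2 transcripts in number, since it is not divided by length. The ratio of Itga5 to Itga6 counts was 1.93, 1.43 and 1.76 on fibronectin. It was 1.71, 1.60 and 2.14 on laminin and 1.94, 1.67 and 2.40 on no coating, against 1.27, 1.01 and 1.01 in suspension. No attached library fell into the suspension range. The means were 1.71 ± 0.251 on fibronectin, 1.82 ± 0.287 on laminin, 2.00 ± 0.371 on no coating and 1.10 ± 0.150 in suspension (SD, n = 3 each). The ratio was formed after both genes had been seen and was given no test.

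**Figure D3:**
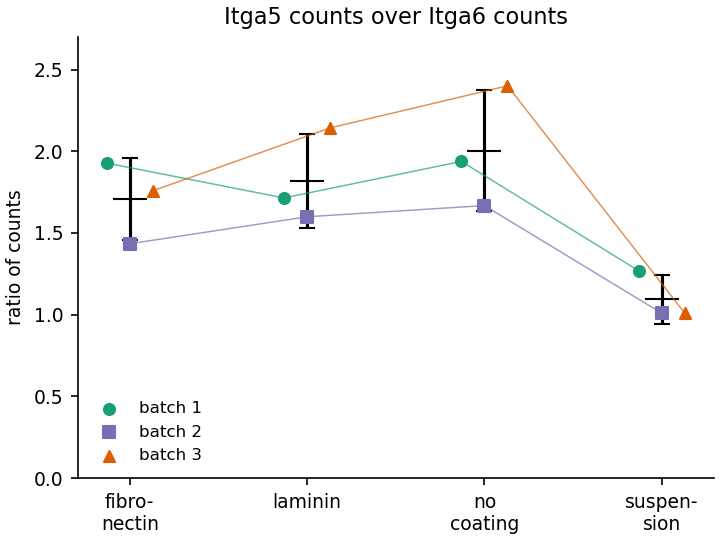
Ratio of Itga5 to Itga6 counts (vertical axis, linear, from 0) in each library by group, with a symbol per batch, and a horizontal bar at each group mean with the SD over 3 libraries as the error bar. All 9 attached libraries lie between 1.43 and 2.40, above the 3 suspension libraries at 1.01 to 1.27.

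Itgb1 encodes the β1 chain shared by α4, α5, α6 and α7. It had 2493, 2883 and 2305 CPM on fibronectin. It had 2784, 2831 and 1988 CPM on laminin and 2683, 2669 and 1908 CPM on no coating, against 2683, 2942 and 2925 CPM in suspension. The low values were those of batch 3, and in batches 1 and 2 attached and suspension libraries overlapped. The log2 fold changes were -0.12 ± 0.17 on fibronectin, -0.16 ± 0.17 on laminin and -0.21 ± 0.17 on no coating (edgeR adjusted p = 0.685, 0.511 and 0.405). Without batch 3 they were -0.02, 0.01 and -0.04, so the direction on laminin turned.

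The Itga5 count divided by the Itgb1 count was 0.145, 0.121 and 0.165 on fibronectin. It was 0.126, 0.131 and 0.224 on laminin and 0.145, 0.151 and 0.255 on no coating, against 0.107, 0.107 and 0.109 in suspension. This ratio was above suspension in all attached libraries and differed most in batch 3, where Itgb1 was lowest on each surface. Like the ratio to Itga6, it was formed after both genes had been seen and was given no test. Itga5 CPM alone already separated these libraries, so the ratio is not a separate result.

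Itgb5, the β chain of the vitronectin receptor αvβ5, was the member with the smallest SE. It had 1236, 1182 and 1264 CPM on fibronectin, 1304, 1312 and 1456 CPM on laminin and 1202, 1229.9 and 1438 CPM on no coating, against 1274, 1211 and 1183 CPM in suspension. Laminin libraries lay above all suspension and all fibronectin libraries, as did 22.0% of all genes against suspension and 3.38% against fibronectin. The log2 fold change was 0.04 ± 0.07 on fibronectin, 0.15 ± 0.07 on laminin and 0.09 ± 0.07 on no coating, and none passed (edgeR adjusted p = 0.720, 0.131 and 0.346).

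Itga7, the α chain of the laminin receptor of striated muscle, had 61.6, 77.2 and 77.1 CPM on fibronectin. It had 59.8, 72.8 and 89.6 CPM on laminin and 65.6, 76.1 and 88.2 CPM on no coating, against 71.2, 78.3 and 74.5 CPM in suspension. All groups overlapped. The log2 fold changes were -0.02 ± 0.14, -0.01 ± 0.14 and 0.05 ± 0.14 on fibronectin, laminin and no coating (edgeR adjusted p = 0.936, 0.952 and 0.819), and the sign differed between batches.

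Itgb4, the β chain of the hemidesmosome integrin α6β4, was detected at a low level in every library. It had 6.85, 4.18 and 7.63 CPM on fibronectin, 8.16, 5.99 and 8.43 CPM on laminin and 6.22, 6.30 and 8.58 CPM on no coating, against 7.07, 5.77 and 7.28 CPM in suspension. The groups overlapped, and the log2 fold changes of -0.07 ± 0.22, 0.17 ± 0.22 and 0.08 ± 0.22 did not pass (edgeR adjusted p = 0.856, 0.602 and 0.809). Itga4, the α chain that binds fibronectin and VCAM-1, had no count, as had 3796 of the 16924 genes in the files. A count of 0 allows up to 3 counts, or 0.144 to 0.189 CPM in a single library, for counting error only. Over all 12 libraries together the same limit is 0.0140 CPM.

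The group mean of Itga5 was highest on no coating, followed by laminin and fibronectin, and lowest in suspension. Fibronectin and laminin libraries overlapped, as did laminin and no coating libraries. For the other members the 3 attached groups overlapped, apart from Itgb5 on laminin and fibronectin. Between the highest and lowest group mean of log2 CPM, Itga5 spanned 0.49, Itga6 0.39, Itgb4 0.27, Itgb1 0.23, Itgb5 0.15 and Itga7 0.07. Levels of different genes were not ranked because transcript lengths were not used here.

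Between the 2 matrix proteins, no integrin member differed by the test. Among all genes 0.150% were called, and 0 of the 6 members had an unadjusted p below 0.05 or a call in DESeq2. Laminin against fibronectin gave log2 fold changes of 0.07 (95% interval -0.15 to 0.28) for Itga5 and -0.03 (-0.35 to 0.28) for Itga6. The values were 0.11 (-0.04 to 0.26) for Itgb5 and -0.05 (-0.43 to 0.34) for Itgb1. Itgb4 stood at 0.24 (-0.24 to 0.72) and Itga7 at 0.01 (-0.30 to 0.32). These intervals, not adjusted for the number of genes, bound what 3 libraries a group could show and do not establish equal levels.

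Set against no coating, fibronectin cells had less Itga5, at 347 to 379.5 CPM against 389 to 487 CPM, without overlap, as had 3.34% of all genes in that direction. The log2 fold change was -0.21 ± 0.10, with edgeR unadjusted p = 0.0484, and it missed the adjusted threshold in a comparison where 0.180% of all genes were called. Of the 6 members 0 were called by edgeR or DESeq2, and 1 had an unadjusted edgeR p below 0.05, as had 344 of all 10020 genes. With the block the Itga5 difference had an edgeR adjusted p = 0.382. Without no coating 3 the log2 fold change was -0.13. Laminin against no coating gave -0.15 ± 0.10 for Itga5, which was -0.065 without no coating 3, -0.088 without laminin 1 and -0.24 without laminin 3. There edgeR called 0% of all genes, no member had an unadjusted p below 0.05, and DESeq2 called 0 members.

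The genes whose log2 CPM followed Itga5 most closely over the 12 libraries were Cmip (Pearson r = 0.977), C8h15orf39 (0.968) and Arih2 (0.963). Those closest to Itga6 were Septin11 (0.983), Hsph1 (0.971) and Eef1e1 (0.952). The libraries share batches and groups, so these values only describe likeness.

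Of the integrin subunits outside the 10 listed, 7 were tested, and with all libraries and no block 0 were called by edgeR or DESeq2 on any surface. Of these 7, 1 had an unadjusted edgeR p below 0.05 on fibronectin, 0 on laminin and 0 on no coating. Among all 10020 genes the counts were 2697, 3577 and 3201. Itgb6, the β chain of an epithelial αv integrin, had a log2 fold change of 0.53 ± 0.18 on fibronectin (edgeR adjusted p = 0.0874). Itga8, whose product binds nephronectin and fibronectin with β1, had -0.57 ± 0.27 on laminin and -0.47 on no coating (edgeR adjusted p = 0.159 and 0.248). The medians of the 7 were -0.04 on fibronectin, -0.15 on laminin and -0.11 on no coating. With the block Itgb6 was called higher on fibronectin (edgeR adjusted p = 0.0146). Itga8 was then lower on laminin (0.0231) and on no coating (0.0409), as was Itga1, a collagen receptor chain (0.0355 and 0.0313). Without batch 3, and with no block, Itga8 also passed on laminin (edgeR adjusted p = 0.0367).

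Among 11 tested genes of the ligands themselves, 2 were called on laminin, which is near the 19.0% of all genes called there, and the list medians were -0.06 on fibronectin, -0.10 on laminin and 0.0051 on no coating. Fn1, which encodes fibronectin, fell by 0.39 on the log2 scale (SE 0.09, edgeR adjusted p = 0.0166), with 4400, 3960 and 5096 CPM on laminin against 6293, 5765 and 5553 CPM in suspension. Lama1, the laminin α1 chain, rose by 1.35 ± 0.35 (edgeR adjusted p = 0.0237), at 0.747, 1.44 and 1.62 CPM on laminin against 0.362, 0.610 and 0.504 CPM in suspension, a very low level. The Fn1 call was lost without suspension 1, suspension 2 or laminin 2 (edgeR adjusted p = 0.0541, 0.0519 and 0.0545). That of Lama1 was lost with only the groups compared in the fit (0.0510), without batch 3 (0.104) and without suspension 1 or 3 or laminin 2 or 3 (up to 0.0788). On fibronectin and on no coating edgeR called 0 of the 11, with 2 and 3 below an unadjusted p of 0.05. DESeq2 called 1 of the 11 on fibronectin and 0 on no coating. Of all 10020 genes, 2697 and 3201 were below that unadjusted edgeR p, and DESeq2 called 1319 and 1659. Among the 11, the smallest p on both surfaces belonged to Fbn1, a microfibril protein with an integrin-binding motif. It stood at 0.44 ± 0.13 on fibronectin and 0.39 on no coating (edgeR adjusted p = 0.0570 and 0.0673). Without suspension 1 the fibronectin value passed (edgeR adjusted p = 0.0487). With the block 2 were called on fibronectin, 4 on laminin and 4 on no coating, against 28.7%, 43.2% and 38.8% of all genes.

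Of 9 tested matrix receptors outside the integrin family, 3 rose on each surface and none fell, where 6.61% of all genes rose on fibronectin, 12.1% on laminin and 8.48% on no coating. This list was chosen with earlier results of these data known, so its count beside the all-gene shares is a description only. The list medians were 0.10 on fibronectin, 0.10 on laminin and 0.12 on no coating on the log2 scale. Sdc4, syndecan-4, a heparan sulfate proteoglycan that acts with α5β1 on fibronectin, had 1539, 1232 and 1347 CPM on fibronectin, 1619, 1205 and 1424 CPM on laminin and 1642, 1292 and 1436 CPM on no coating, against 400.2, 399.9 and 372 CPM in suspension. All attached libraries were several-fold above suspension. A lack of overlap in that direction, of any size, held for 16.4% of all genes on fibronectin, 22.0% on laminin and 17.6% on no coating. The log2 fold change of Sdc4 was 1.85 ± 0.14 on fibronectin, 1.86 on laminin and 1.92 on no coating (edgeR adjusted p = 1.38e-05, 1.05e-05 and 8.68e-06). Sdc1, syndecan-1, rose by 0.45, 0.61 and 0.62 on the log2 scale on the same surfaces (edgeR adjusted p = 0.00956, 0.00122 and 0.00128). The third was Rpsa, the ribosomal protein also described as a laminin receptor, at 0.37, 0.43 and 0.36. Its counts are uncertain because near-identical copies of this gene exist in the genome, and its call on fibronectin was lost without fibronectin 1 or 3 or any 1 suspension library (edgeR adjusted p up to 0.155), without TMM scaling (0.110) and with no filter on low counts (0.0501). Its call on no coating was lost without no coating 2 or 3 or any 1 suspension library (edgeR adjusted p up to 0.109), without TMM scaling (0.0760), with no filter (0.0514) and with only the groups compared (0.0879). With the block the collagen receptor Ddr2 was also called lower on each surface, and Ddr1, its epithelial relative, higher on laminin and on no coating.

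**Figure D4:**
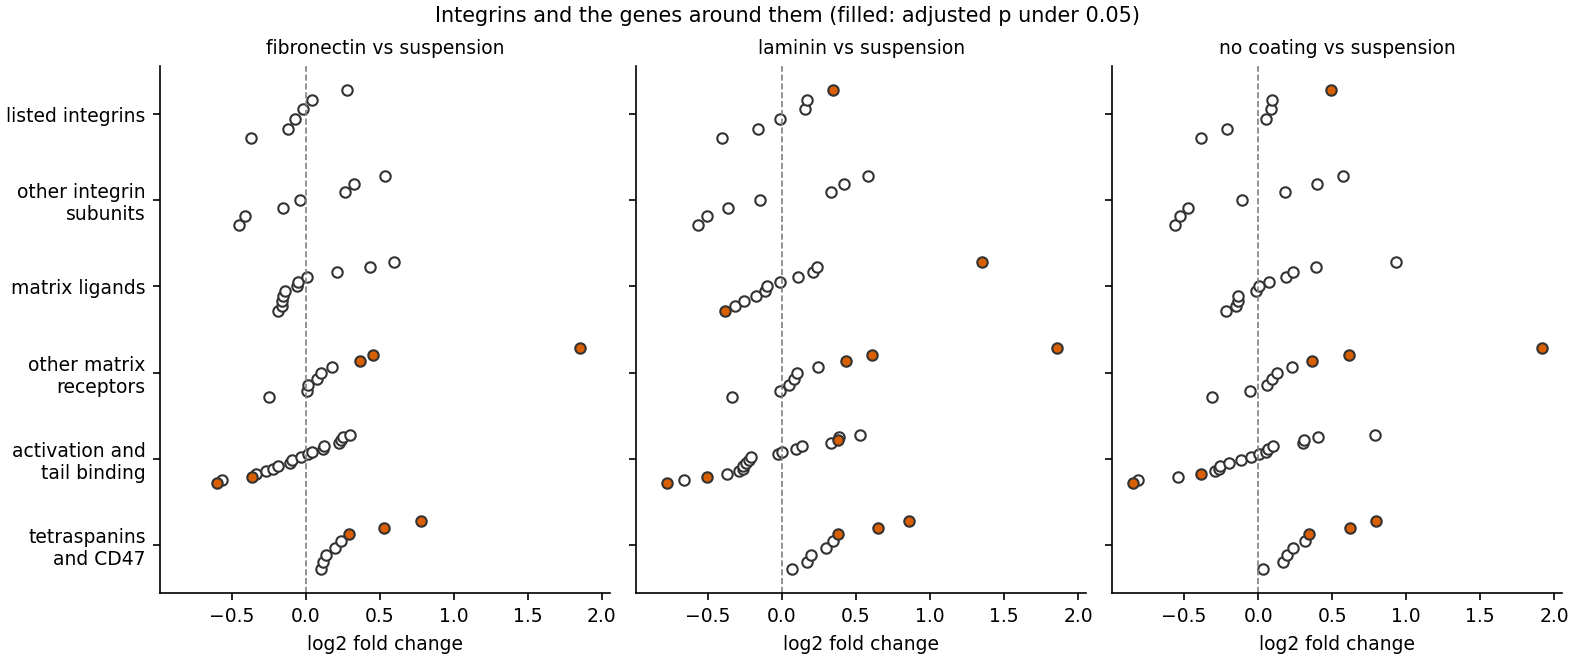
Log2 fold change against suspension (horizontal axis, edgeR) of every tested gene in the integrin members and the 5 lists around them, in panels for fibronectin, laminin and no coating, with filled points where the adjusted p was below 0.05. Sdc4, at 1.85 to 1.92, lies farthest to the right in each panel.

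Tetraspanins are membrane organisers that bind laminin-type integrins laterally. Of 8 tested genes, which include the integrin-associated protein gene Cd47, 3 rose on each surface and none fell, beside the same all-gene shares of 6.61%, 12.1% and 8.48%, with list medians of 0.22 on fibronectin, 0.32 on laminin and 0.27 on no coating. Earlier results of these data were known when this list was chosen as well, so its count only describes these genes. Cd9 had 734, 733 and 799.6 CPM on fibronectin, 849.7, 773 and 829.9 CPM on laminin and 763, 769 and 784 CPM on no coating, against 463, 449.8 and 441 CPM in suspension. All attached libraries of Cd9 lay above suspension, as did those of 16.4% of all genes on fibronectin, 22.0% on laminin and 17.6% on no coating. The log2 fold changes of Cd9 were 0.78, 0.86 and 0.79 on the 3 surfaces (edgeR adjusted p = 1.69e-05, 6.99e-06 and 1.12e-05). Cd82 rose by 0.53, 0.65 and 0.62, and Cd63 by 0.29, 0.38 and 0.34. The Cd63 call on fibronectin was lost with each single library left out (edgeR adjusted p = 0.0523 to 0.122) and without TMM scaling (0.117). That on no coating was lost with only the groups compared (0.0702). With the block 5 of the 8 rose on each surface, Cd151 and Cd81 being the added genes, and in that fit 1664 of all 10020 genes rose on fibronectin, 2246 on laminin and 2014 on no coating.

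Of 18 genes that activate integrins or bind their tails, 2 fell on each surface, where 3.06% of all genes fell on fibronectin, 6.96% on laminin and 4.10% on no coating. The same limit on the choice of the list holds here. Without batch 3, or without laminin 3 alone, 5 fell and 0 rose on laminin. In the fit without batch 3, 1035 of all 10045 tested genes fell on laminin and 859 rose. The list medians were -0.066 on fibronectin, -0.22 on laminin and -0.083 on no coating. Tns3, a tensin at fibrillar adhesions, fell by 0.37 on fibronectin, 0.51 on laminin and 0.39 on no coating on the log2 scale. Dab2, an endocytic adaptor of β1 integrins, fell by 0.60, 0.78 and 0.85, and its fibronectin call was lost without any 1 of the 6 libraries compared (edgeR adjusted p up to 0.164). Dab2 had 117, 113 and 99.4 CPM on fibronectin, 117, 97.0 and 83.6 CPM on laminin and 109, 97.9 and 73.6 CPM on no coating, against 175, 169 and 168 CPM in suspension. Snx17, a sorting nexin that returns β1 integrins from endosomes to the surface, rose on laminin by 0.38 ± 0.10 (edgeR adjusted p = 0.0262), and this call did not hold without batch 3 (0.0580), laminin 3 or any 1 suspension library (up to 0.0914). With the block 5 of the 18 were called on fibronectin, 7 on laminin and 6 on no coating, which is near or below the all-gene shares of 28.7%, 43.2% and 38.8%. Between the surfaces no gene of the 5 lists was called by edgeR, with or without the block, or by DESeq2. At an unadjusted edgeR p below 0.05 there were 2 such genes for laminin against fibronectin and 1 each for fibronectin and laminin against no coating. Among all 10020 genes the counts were 300, 344 and 156 in the same order. The smallest p of each list for laminin against fibronectin belonged to Lama1 (log2 fold change 0.76), Tns3 (-0.14), Sdc1 (0.16), Cd82 (0.12) and Itgb6 (-0.20). For fibronectin against no coating it belonged to the laminin β3 chain gene Lamb3 (-0.21), Itgb6 (0.35), Sdc1 (-0.17), Dab2 (0.25) and Cd82 (-0.093). For laminin against no coating it belonged to Fn1 (-0.25), Tns3 (-0.12), Cd9 (0.067), Itgb6 (0.15) and Rpsa (0.071).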

How the data were processed

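Total RNA libraries (TruSeq Stranded Total RNA, per the labels' protocols) were made from 12 cultures. The deposited values are raw counts of reads by gene in 12 files, with Entrez identifiers per the file headers. The submitters' processing notes name the build rn4. The aligner, counter and strand setting were not given in the sources used here. Without a known strand setting, reads of overlapping antisense genes cannot be told apart. Symbols for 16761 of 16924 identifiers, and promoters, came from RefSeq tables of assembly GRCr8.

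CPM was computed from the deposited counts and library totals, without TMM. Genes were kept by filterByExpr and tested with edgeR 4.0.16 in R 4.3.3 (TMM factors 0.962 to 1.03, glmQLFit, glmQLFTest) in 1 model of 4 groups with 8 residual degrees of freedom. P-values were adjusted by Benjamini-Hochberg over 10020 genes. The procedure was tested on simulated data.

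The batch label pairs libraries of the same number: deviations from group means correlated across genes at a median of 0.409 within batches (18 pairs of libraries) and -0.124 between them (36 pairs). Deviations within a group sum to 0, so a positive value within batches pushes the value between them below 0. The contrast of these medians therefore overstates the pairing. The lowest same-batch value was 0.514 among attached libraries and 0.036 for pairs with a suspension library, so batch pairing with suspension, on which the block fit against suspension rests, is weak in places. A second fit with the batch as a block had 6 residual degrees of freedom, and the biological coefficient of variation was 0.100 with it and 0.152 without. Alternatives were DESeq2 1.42.0, no TMM, no filter, only the groups compared, leaving out batch 3, and leaving out each library in turn.

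Members and lists were chosen with earlier results of these data known. The text names all members and, per list and comparison, the 4 called genes with the smallest p, or the 1 with the smallest p where none was called. It also names the 3 genes most correlated with each of the 2 members of widest range. Values given per library for list genes illustrate these.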

Additional observations from a re-analysis of the deposited data

How the results depend on the processing

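With the replicate block, 2 integrin members were called on fibronectin, on laminin and on no coating against suspension, compared with 0, 1 and 1 without it; Itga5 and Itga6 passed on all 3. All-gene calls with the block were 2872, 4333 and 3889, against 969, 1905 and 1261 without it, and the 2-group fit gave 461 on no coating. Without TMM the split of all calls was 384 higher and 329 lower on fibronectin, 802 and 661 on laminin, and 496 and 417 on no coating. Without batch 3 it was 432 and 497, 859 and 1035, and 519 and 684. Members called were 1 on fibronectin with only the groups compared, and on laminin 0 without TMM, 2 with DESeq2 and 0 with only the groups compared. Leaving out single libraries gave 0 to 1 members on fibronectin, 0 to 1 on laminin and 1 to 2 on no coating. No member was called between surfaces in any setting run. The directions that turned were of uncalled differences, and the cause was not tested. Without batch 3 the log2 fold change against suspension was 0.010 for Itgb1 on laminin and -0.048 for Itga7 on no coating. For laminin against fibronectin it was -0.0028 for Itga5, -0.092 for Itga7 and 0.035 for Itgb1; the block gave -5.02e-05 for Itga7. For fibronectin against no coating it was -0.034 for Itga6 and 0.0016 for Itgb5, and -0.000351 for Itga6 without TMM. With single libraries left out, log2 fold changes that turned ran as follows. Against suspension, Itga7 ran from -0.070 to 0.063 on fibronectin, -0.16 to 0.11 on laminin and -0.040 to 0.14 on no coating, and Itgb4 from -0.23 to 0.15 on fibronectin and -0.060 to 0.15 on no coating. For laminin against fibronectin, Itga5 ran from -0.025 to 0.13, Itga6 from -0.11 to 0.055, Itga7 from -0.13 to 0.13 and Itgb1 from -0.14 to 0.11. For fibronectin against no coating, Itga6 ran from -0.074 to 0.12, Itga7 from -0.16 to 0.018, Itgb1 from -0.067 to 0.19, Itgb4 from -0.32 to 0.069 and Itgb5 from -0.087 to 0.010. For laminin against no coating, Itga6 ran from -0.083 to 0.084, Itga7 from -0.20 to 0.059, Itgb1 from -0.11 to 0.21 and Rpsa from -0.0017 to 0.18. For Itga4, with 0 counts, depth sets the limit of 0.0140 CPM over all libraries, and whether its row can collect reads was not tested. Itgb4 had 80 to 146 counts per library.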
